A study of Mus musculus with 15 samples.

Results

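The primary cilium is a single, immotile projection of the cell surface, built on a basal body and closed off by a gate called the transition zone. Intraflagellar transport (IFT) carries cargo along it: the IFT-B complex moves with kinesin-2 towards the tip, the IFT-A complex moves with dynein-2 back to the base, and the BBSome takes membrane proteins out. In vertebrates the Hedgehog signal passes through this organelle, where Ptch1 keeps Smoothened out of the cilium until ligand arrives and where Gli factors are processed, and medulloblastoma of the Hedgehog kind arises from the ciliated precursors of cerebellar granule neurons. The genes described here are those on the array whose symbol is Ift, Bbs or Tctn followed by a number, together with Arl13b, Arl3, Tulp3, Gpr161, Cep290, Cep164, Mks1, Rpgrip1l, Evc, Evc2, Ttbk2 and Ofd1. The rule named 37 genes of the RefSeq table, of which 34 had a probe, among 32628 genes and transcripts on the array. All 34 were tested, as were 21661 genes in all, and every one was well above background on all 15 arrays except Gpr161, which was so on 11 of 12 tumour arrays and on all 3 normal ones. Mks1, Bbs1 and Bbs10 were not analysed here. Members lay on 17 chromosomes, 7 of them on chromosome 5 and 0 on chromosome 13, which carries Ptch1. Several IFT subunits carry older symbols in the gene table (Ttc26, Ttc30a1, Ttc21b and others) and are counted in a separate list below.

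The samples were 6 R-type medulloblastomas, 6 S-type medulloblastomas and 3 normal cerebella, with total RNA of each on its own one-colour (Cy3) array. The tumours arose in Ptch1+/- mice of C3B6F1 background: R-type after 0.2 Gy (MB7 to MB9) or 1.5 Gy (MB10 to MB12) of X-rays, S-type after 0 Gy (MB1 to MB3) or 0.2 Gy (MB4 to MB6), with exposure on postnatal day 1 and follow-up until the mice were moribund. The labels do not say what R and S stand for, nor the genotype or strain of the mice that gave the normal cerebella, nor the unit of age, which was 87 to 127 for R-type, 128 to 173 for S-type and 103 to 113 for normal cerebella. Type, dose and age therefore vary together, MB6 was the 1 male among the tumours, and every tumour carries 1 disrupted Ptch1 allele from the germ line.

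Levels are log2 signals less the 75th percentile of the array, so that 0 is the 75th percentile and values of different probes are not set against each other. The 75th percentile signal was 1218.4 to 1664.4 intensity units, and 59.1 to 66.5% of probes were well above background. Markers followed the tissue labels: the summed level of 7 granule neuron precursor markers was 181 to 220 in tumours and 101 to 113 in normal cerebella (multiples of the 75th percentile), that of 8 mature granule neuron markers 26.7 to 44.3 in tumours and 240 to 265 in normal cerebella, and that of 8 Purkinje cell markers 5.69 to 9.88 in tumours and 332 to 355 in normal cerebella. Astrocyte and Bergmann glia markers (7 genes) summed to 13.6 to 40.1 in tumours and 236 to 262 in normal cerebella, and oligodendrocyte markers (7 genes) to 7.94 to 11.9 in tumours and 60.7 to 94.6 in normal cerebella. The brightest probes rule these sums. Zic1, at a log2 level of 6.60 to 6.77 in normal cerebella and 6.35 to 6.74 in tumours, made up most of the normal precursor sum. Mbp, at 2.51 to 3.2 in tumours, made up most of their oligodendrocyte sum. By gene, 5 of 7 precursor markers were higher in tumours and 0 lower. All 8 mature granule neuron and all 8 Purkinje cell markers were lower, as were 6 of 7 in each glial list. A change in the amount of RNA per cell and a change in the share of a cell type cannot be told apart in such tissue, and the part of these markers in the differences between tumours and normal cerebella was not tested.

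Upstream sequence is shown for Evc, Evc2 and Bbs12, the 3 genes with the highest differences between tumours and normal cerebella, of which Evc and Evc2 lie head to head on chromosome 5. It is also shown for Ift140 and Ift57, whose promoters hold letters of the X-box, a motif of RFX factors, which drive many ciliary genes. Each is the stretch of 250 bases before the RefSeq transcription start, 5′ to 3′ on the strand of the gene, from RefSeq on GRCm38.p6; capitals mark GTTGCC, a half-site of the X-box, or the repeat of both half-sites, on either strand.
Evc: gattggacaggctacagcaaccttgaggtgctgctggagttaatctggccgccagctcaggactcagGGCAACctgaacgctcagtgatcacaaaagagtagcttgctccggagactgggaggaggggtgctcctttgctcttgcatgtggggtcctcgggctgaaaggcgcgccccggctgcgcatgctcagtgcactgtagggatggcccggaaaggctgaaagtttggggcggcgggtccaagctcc
Evc2: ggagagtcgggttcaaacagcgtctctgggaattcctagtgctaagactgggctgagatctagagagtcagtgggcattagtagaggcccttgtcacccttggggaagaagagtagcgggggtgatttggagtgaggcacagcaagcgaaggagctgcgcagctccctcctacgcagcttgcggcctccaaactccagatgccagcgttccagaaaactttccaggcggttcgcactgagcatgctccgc
Bbs12: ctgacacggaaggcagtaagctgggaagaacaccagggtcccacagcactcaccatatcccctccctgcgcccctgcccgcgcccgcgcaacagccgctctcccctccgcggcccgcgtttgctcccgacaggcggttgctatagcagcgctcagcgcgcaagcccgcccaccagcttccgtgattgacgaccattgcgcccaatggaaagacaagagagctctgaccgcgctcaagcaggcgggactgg
Ift140: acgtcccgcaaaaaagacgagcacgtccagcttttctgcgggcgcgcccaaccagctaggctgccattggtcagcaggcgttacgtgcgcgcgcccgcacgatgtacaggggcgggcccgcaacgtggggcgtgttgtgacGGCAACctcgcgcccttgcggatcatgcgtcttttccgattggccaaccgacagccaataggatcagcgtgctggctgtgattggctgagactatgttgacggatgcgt
Ift57: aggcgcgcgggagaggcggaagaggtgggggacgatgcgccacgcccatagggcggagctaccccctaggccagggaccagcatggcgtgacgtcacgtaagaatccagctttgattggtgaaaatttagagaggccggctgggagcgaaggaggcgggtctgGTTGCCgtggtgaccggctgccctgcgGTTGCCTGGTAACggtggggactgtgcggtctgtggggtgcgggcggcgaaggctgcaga
The stretch before Evc is at chr5:37336882-37337131 on the minus strand, and that before Evc2 is at chr5:37338228-37338477 on the plus strand, with 1597 bases between the 2 starts. The others are at chr3:37312304-37312553 (Bbs12), chr17:25015836-25016085 (Ift140) and chr16:49699044-49699293 (Ift57), all on the plus strand. Promoters were found for 31 of the 34 members, 33 promoters in all, each from 250 bases before to 50 after the start. GTTGCC, on either strand, was present in those of 13 of 31 genes (41.9%), against 12.5% of all 32851 promoters in the table. Among genes with a promoter it was present for 7 of 18 that were higher in tumours, for 2 of 8 that were lower and for 4 of 5 that did not pass. The repeat, GTTNCCNGGNAAC or GTTNCCNNGGNAAC on either strand, was present for Ift57, Tctn3, Bbs7 and Tctn1, against 0.718% of all promoters; a repeat whose arm reads GTTGCC is counted under both. The letters GACCACCCA, the core of the site bound by Gli factors, were in 0 of the 33 member promoters and in 0.253% of all. These are matches of letters and say nothing of binding. For GTTGCC and the repeat, a member counted if any of its promoters matched, whereas the shares of all are per promoter.

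Against normal cerebella, 20 of the 34 cilium genes were higher in tumours and 8 were lower (limma, Benjamini-Hochberg over 21661 genes, adjusted p under 0.05). Most genes on the array differed in this comparison: 43% of all tested genes were higher and 35.8% lower. At 2-fold or more, 7 members were higher and 3 lower (20.6% and 8.82% of the 34), against 24% and 21.6% of all genes. The median difference of the 34 was 0.383 on the log2 scale, and that of all tested genes was 0.119. The values of tumours and normal cerebella did not overlap for 25 members, against 65.6% of all genes. The extremes were Evc at 2.80 and Bbs4 at -1.21.

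**Figure D1:**
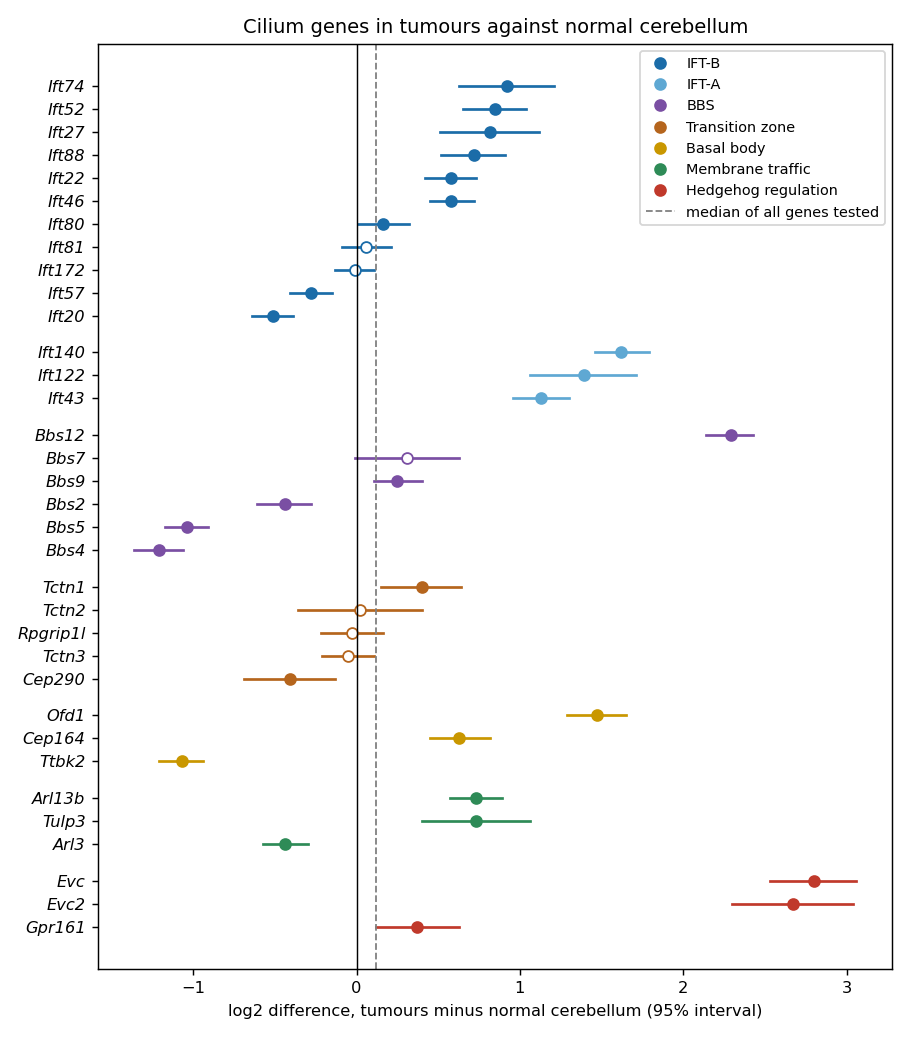
Log2 difference between tumours (n = 12) and normal cerebella (n = 3) for each of the 34 members, grouped by role, with 95% intervals from limma; filled points have an adjusted p under 0.05. All 3 IFT-A members and all 3 Hedgehog regulators among the 34 lie to the right of the dashed median of all genes (0.119), while the BBS genes run from 2.29 for Bbs12 to -1.21 for Bbs4.

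Evc and Evc2 encode partner proteins that sit just above the transition zone and pass the signal of Smoothened on to the Gli factors, and both were among the strongest differences. Evc was at 0.44 at the lowest, 0.76 in the median and 1.11 at the highest in the tumours, and at -1.97, -1.88 and -2.21 in the normal cerebella. Every tumour stood above every normal cerebellum, with a difference of 2.80 (SE 0.123, 6.94-fold, adjusted p = 7.4e-10, limma). Evc2 was at 2.16, 2.81 and 3.47 (lowest, median, highest) in the tumours and at 0.15, 0.2 and -0.03 in the normal cerebella, a difference of 2.67 (SE 0.167, 6.36-fold, adjusted p = 1.7e-08, limma). A second Evc probe gave 2.68. In both genes MB2 and MB6 were the lowest tumours, at 0.44 and 0.47 for Evc and 2.21 and 2.16 for Evc2. Gpr161, a receptor that leaves the cilium on Hedgehog signalling and otherwise favours the repressor form of Gli, was near the detection limit. Its level was -5.08, -4.86 and -4.54 (lowest, median, highest) in the tumours and -5.09, -5.27 and -5.28 in the normal cerebella. The difference was 0.37 (SE 0.117, adjusted p = 0.0114, limma), with an adjusted p of 0.0516 when the third normal cerebellum was left out.

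**Figure D2:**
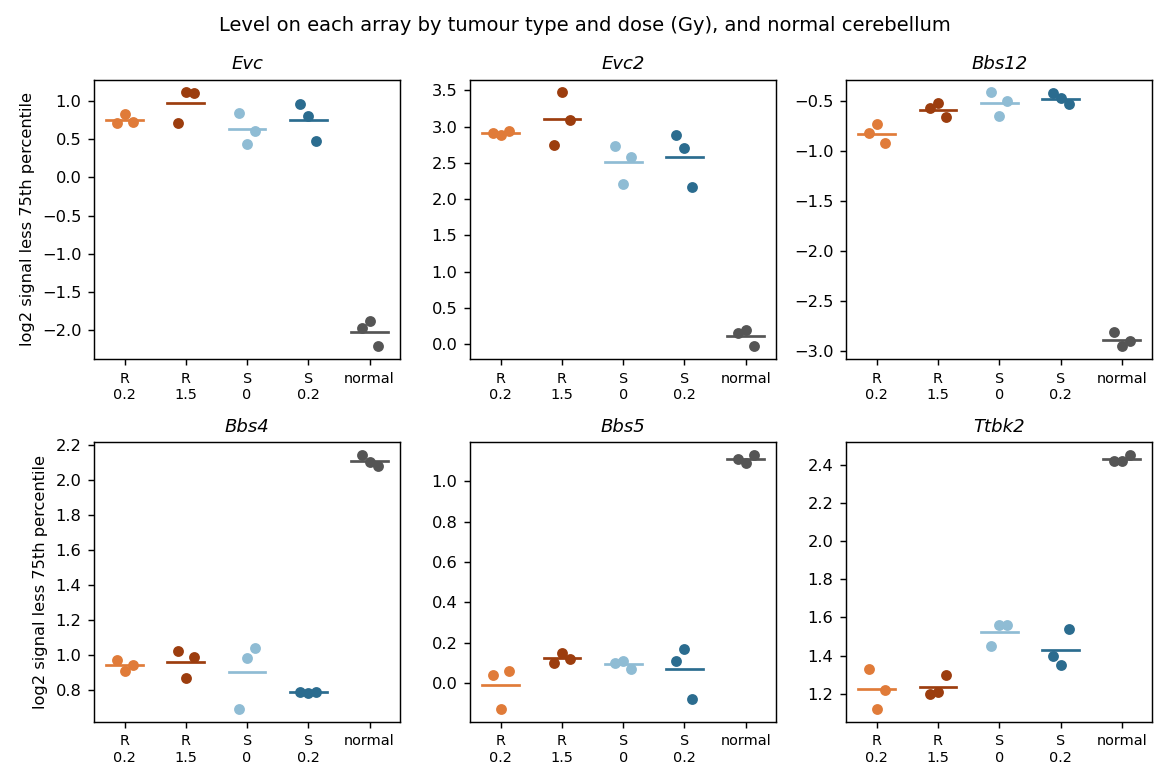
Level (log2 signal less the 75th percentile) of 6 members on each array, by tumour type and dose in Gy and in normal cerebellum; points are arrays (n = 3 a group) and bars group means. All 12 tumours lie above the normal cerebella for Evc, Evc2 and Bbs12 and below them for Bbs4, Bbs5 and Ttbk2.

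Of IFT-A, the complex for return transport and for entry of membrane proteins, all 3 genes under the naming rule were higher in tumours. Ift140, a core subunit, was at 1.60, 1.78 and 1.93 (lowest, median, highest) in tumours and at 0.18, 0.18 and 0.15 in normal cerebella, a difference of 1.62 (SE 0.0777, adjusted p = 1.59e-09, limma). A second Ift140 probe gave 1.56 and passed, and the third gave 0.44 and did not (adjusted p = 0.113, limma). Ift122, also of the core, was at 3.67, 4.14 and 4.58 in tumours and at 2.81, 2.74 and 2.74 in normal cerebella (difference 1.39, SE 0.148, adjusted p = 2.49e-06, limma). Ift43, a peripheral subunit, was at 2.90, 3.10 and 3.26 in tumours and at 1.91, 2.00 and 1.93 in normal cerebella (difference 1.13, SE 0.0788, adjusted p = 4.64e-08, limma). No tumour reached down to the normal range in any of these genes. The other IFT-A subunits, named here after their values were seen, differed by 0.87 for Wdr35 (adjusted p = 9.86e-07), 0 for Wdr19 (adjusted p = 0.974) and -0.25 for Ttc21b (adjusted p = 0.0938, limma).

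IFT-B, the complex for transport towards the tip, was divided, with 7 of its 11 genes under the naming rule higher in tumours and 2 lower. The higher ones include subunits of its core: Ift74, which helps to bind tubulin, at a difference of 0.92 (SE 0.132), Ift52 at 0.85 (SE 0.0899), Ift27, a small GTPase-like subunit that also serves BBSome exit, at 0.82 (SE 0.141), Ift88 at 0.72 (SE 0.0889), Ift22 at 0.58 (SE 0.0691) and Ift46 at 0.58 (SE 0.0628). Ift88, whose loss in mice abolishes cilia, was at -1.18, -0.77 and -0.59 (lowest, median, highest) in tumours and at -1.56, -1.48 and -1.51 in normal cerebella. Ift27 was at 3.60, 4.35 and 4.58 in tumours and at 3.49, 3.52 and 3.37 in normal cerebella, with MB2 the lowest tumour. Ift80 was the seventh, at 0.16 (adjusted p = 0.0471, limma), with overlapping values, and it kept its call in 8 of 24 alternative settings.

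The 2 IFT-B members that were lower both encode peripheral subunits. Ift20, which also works at the Golgi apparatus, was at 2.92, 3.01 and 3.24 (lowest, median, highest) in tumours and at 3.48, 3.55 and 3.54 in normal cerebella, a difference of -0.51 (SE 0.0566, adjusted p = 3.33e-06, limma). Ift57 was at 2.17, 2.43 and 2.55 in tumours and at 2.71, 2.64 and 2.67 in normal cerebella, a difference of -0.28 (SE 0.0599, adjusted p = 0.000949, limma). Neither overlapped with its normal range. Ift172, another peripheral subunit, was at 0.75, 1.03 and 1.26 in tumours and at 1.03, 0.97 and 1.08 in normal cerebella, a difference of -0.01 with a 95% interval of -0.13 to 0.11. A second Ift172 probe gave -0.23 and passed (adjusted p = 0.0138, limma), and the third gave -0.12 and did not. Ift81, the partner of Ift74, differed by 0.06 (95% interval -0.09 to 0.21).

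The BBS genes ran in both directions, with 2 of 6 higher and 3 lower. Bbs12, a chaperonin-like protein that helps to assemble the BBSome, was at -0.92, -0.55 and -0.41 (lowest, median, highest) in tumours and at -2.81, -2.95 and -2.90 in normal cerebella. Its difference of 2.29 (SE 0.0664, 4.88-fold) had the smallest adjusted p of the 34, 2.17e-11 by limma. Bbs4, a BBSome subunit that links it to pericentriolar material, was at 0.69, 0.93 and 1.04 in tumours and at 2.14, 2.10 and 2.08 in normal cerebella (difference -1.21, SE 0.069, adjusted p = 7.5e-09, limma). Bbs5, a BBSome subunit that binds membrane lipids, was at -0.13, 0.10 and 0.17 in tumours and at 1.11, 1.09 and 1.13 in normal cerebella (difference -1.04, SE 0.0614, adjusted p = 9.94e-09, limma). The tumours lay wholly above the normal cerebella for Bbs12 and wholly below them for Bbs4 and Bbs5. Bbs2 differed by -0.44 (adjusted p = 0.000168), Bbs9 by 0.25 (adjusted p = 0.00382) and Bbs7 by 0.31 (adjusted p = 0.0717, limma), with the opposite sign on its other probe.

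At the base of the cilium, Ofd1, a centriolar protein encoded on the X chromosome, was at 1.83, 1.99 and 2.20 (lowest, median, highest) in tumours and at 0.57, 0.60 and 0.38 in normal cerebella, a difference of 1.47 (SE 0.0843, adjusted p = 7.85e-09, limma). Cep164, the distal appendage protein that recruits Ttbk2, was at -0.27, -0.02 and 0.33 in tumours and at -0.63, -0.67 and -0.53 in normal cerebella, a difference of 0.63 (SE 0.0833, adjusted p = 1.66e-05, limma). Ttbk2 itself, the kinase that starts cilium growth by removing a cap from the mother centriole, went the other way. It was at 1.12, 1.34 and 1.56 in tumours and at 2.42, 2.42 and 2.45 in normal cerebella (difference -1.07, SE 0.0614, adjusted p = 7.62e-09, limma). Among transition zone genes, Tctn1 was higher by 0.40 (adjusted p = 0.00663) and Cep290 lower, at -0.41 (adjusted p = 0.011), both with overlapping values. Tctn2 (0.02, 95% interval -0.36 to 0.40), Tctn3 (-0.05, -0.21 to 0.11) and Rpgrip1l (-0.03, -0.22 to 0.16) did not pass.

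Of the traffic genes, Arl13b, a small GTPase of the ciliary membrane whose loss alters Hedgehog output, was at 1.00, 1.30 and 1.53 (lowest, median, highest) in tumours and at 0.48, 0.60 and 0.50 in normal cerebella (difference 0.73, SE 0.0729, adjusted p = 1.28e-06, limma). Arl3, the GTPase that Arl13b activates and that releases lipid-modified cargo, was at 3.13, 3.23 and 3.46 in tumours and at 3.67, 3.67 and 3.71 in normal cerebella (difference -0.44, SE 0.0616, adjusted p = 3.16e-05, limma). Both sets of values stood apart without overlap, in opposite directions. Tulp3, the adaptor that brings Gpr161 and other receptors into the cilium with IFT-A, was at -0.48, -0.06 and 0.32 in tumours and at -0.81, -0.78 and -0.80 in normal cerebella (difference 0.73, SE 0.152, adjusted p = 0.000769, limma). MB10, MB6 and MB2 were its 3 lowest tumours, at -0.48, -0.43 and -0.41.

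Probes of the same gene did not always give the same answer. Of 16 members with several probes well above background, 8 had every probe pass in 1 direction between tumours and normal cerebella, against 65.1% of all 5397 genes with several such probes. In 3 genes probes passed in opposite directions. Cep290 had -0.41 on the brighter probe and 0.92 on the other, Ift46 had 0.58 and -1.20, and Ttbk2 had -1.07 and -1.14 on 2 probes and 0.39 on the third. Rpgrip1l, which did not pass on its brightest probe, had 1.07 and 0.29 on 2 others, both of which passed. Bbs7, which did not pass at 0.31, had -0.38 on its other probe, which passed (adjusted p = 0.00194, limma). Ift172, which did not pass at -0.01, had -0.23 on another probe, which passed. The directions given above for Cep290, Ift46 and Ttbk2 are therefore those of the brightest probe, and which transcripts each probe reads was not tested. The 8 genes with every probe passing in 1 direction were Bbs4, Bbs5, Evc, Ift20, Ift52, Ift57, Arl13b and Ift80. The second Ift80 probe (0.90, adjusted p = 0.0351, limma) was well above background on only 5 of 15 arrays. Ift80 as a gene passed in 8 of 24 alternatives.

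**Figure D3:**
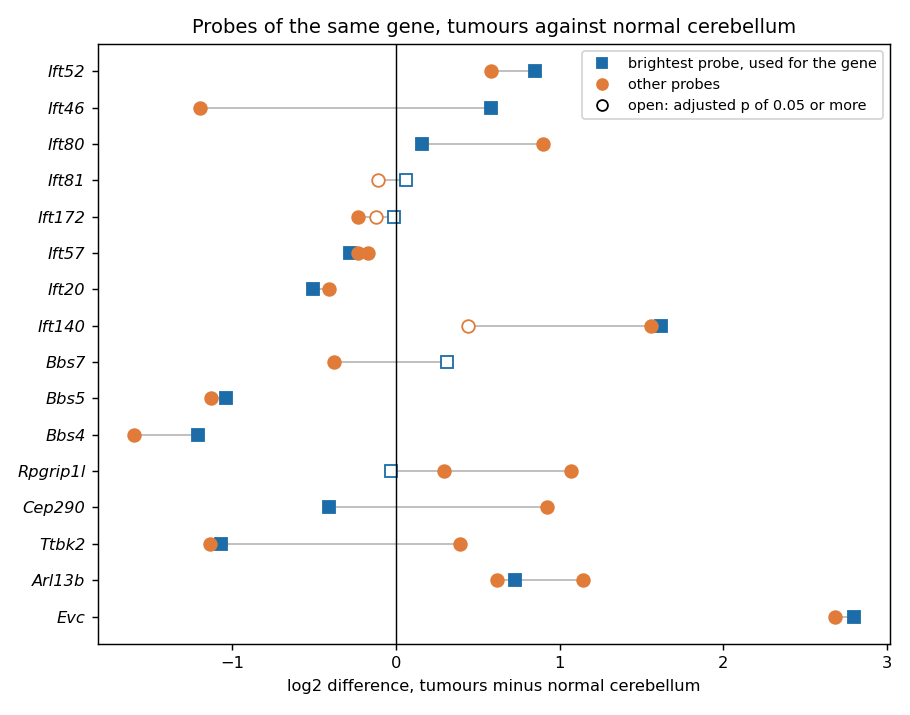
Log2 difference between tumours and normal cerebella for each probe of the 16 members with several probes well above background on at least 3 arrays; the square is the brightest probe, which stands for the gene, and open symbols did not pass. The probes of Ift46, Cep290 and Ttbk2 lie on both sides of 0, and those of Evc lie at 2.80 and 2.68.

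Genes of the same pathways outside the naming rule moved in both directions as well. Of 21 tested genes for other IFT, BBSome, kinesin-2 and dynein-2 subunits, 11 were higher and 5 lower in tumours, with a median difference of 0.39. The IFT-B genes Ttc26 (2.59) and Ttc30a1 (1.21) and the dynein-2 genes Wdr34 (1.16) and Dync2h1 (1.17) had the smallest adjusted p of them. Of 27 other transition zone, appendage and centriole genes, 22 were higher and 2 lower, with a median of 1.01, led by Cep89 (2.15) and Cep83 (1.69) of the distal appendages and Tmem107 (2.23) and B9d2 (1.77) of the transition zone. Of 16 other genes of ciliary traffic and Hedgehog transduction, 10 were higher and 5 lower. Gli2, the main activator of Hedgehog target genes, had a difference of 4.69, Efcab7, which tethers Evc and Evc2 at their place in the cilium, 2.71, Sufu, which restrains Gli factors, 2.21, and Inpp5e, a lipid phosphatase carried in by Arl13b and Arl3, -1.23.

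Of 7 genes that promote loss of the cilium as cells divide, 6 were higher and 1 lower in tumours, with Plk1 at 7.21, Aurka at 6.19, Nek2 at 2.34 and Tchp at 1.38. Of the 7 tested genes for RFX factors and Foxj1, 3 were higher and 1 lower: Rfx3 at 1.21, Rfx7 at 0.95, Rfx2 at 0.57 and Rfx4 at -2.74. Markers of ependymal cells and motile cilia, a different kind of cilium that shares IFT genes, summed to 4.43 to 5.83 in tumours and 6.89 to 8.5 in normal cerebella. Of 11 tested, 2 were higher and 5 lower, with Dnah11 at -6.07, Hydin at -4.04, Tppp3 at -1.28 and Rsph9 at 1.43. Dnah11 was well above background on 4 of 15 arrays and Hydin on 8, so the size of their differences depends on tumour signals near background. Choroid plexus markers, 1 higher and 1 lower of 7, summed to 1.02 to 6.45 in tumours, with MB3 at 6.45 and MB2 at 4.79, and to 2 to 2.73 in normal cerebella. The part of these other ciliated cells in the members' levels was not tested.

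Between the tumour types, 2 of the 34 cilium genes were higher in R-type and 6 were lower, against 10.7% and 10.2% of all tested genes. The median difference of the 34 was 0.022 and that of all genes 0.017, and no member differed by more than 0.46. Only Ttbk2 had R-type values that did not overlap with the S-type values, against 9.15% of all genes. The split moved with the scaling: 0 higher and 11 lower with no scaling between arrays, where the median of all genes was -0.199, 0 and 3 with median scaling, 1 and 6 with quantile normalization, and 4 and 3 with normexp background correction. Of these calls, those of Ift172 and Ttbk2 held in all 24 alternatives. The count of 8 was 2 without MB9, 3 without MB4, MB5 or MB12, 4 without MB6 and 5 without MB1, MB7 or MB11.

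Ift172 was at 0.75, 0.88 and 1.11 (lowest, median, highest) in R-type and at 1.02, 1.15 and 1.26 in S-type tumours. Its difference was -0.24 (SE 0.0488, 1.18-fold lower, adjusted p = 0.00566, limma), and its other probes gave -0.33 and -0.25, so that all 3 passed. By slide the difference was -0.38 to 0.01, with 0.01 on the first slide, where MB10 was the R-type tumour. Ttbk2 was at 1.12, 1.22 and 1.33 in R-type and at 1.35, 1.50 and 1.56 in S-type tumours, a difference of -0.25 (SE 0.055, adjusted p = 0.00942, limma), negative on every slide (-0.40 to -0.08). A second probe gave -0.41 and passed, and the third gave 0.11 and did not. On the brightest probe, the R-type tumours were thus the farther from normal cerebella in Ttbk2. In Ift172 the normal cerebella (0.97 to 1.08) lay between the types' medians on its brightest probe. A second Ift172 probe was lower in tumours than in normal cerebella, at -0.23.

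**Figure D4:**
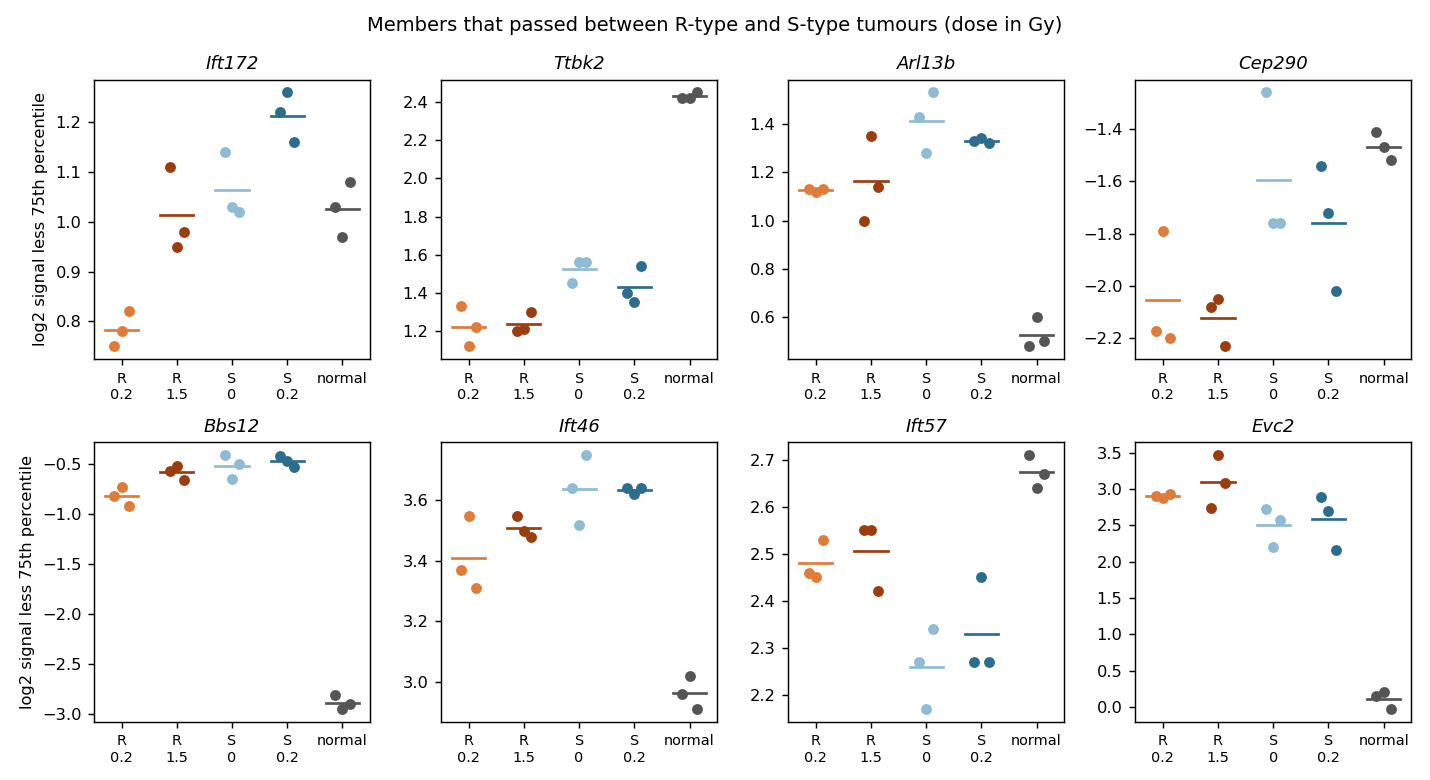
Level (log2 signal less the 75th percentile) of the 8 members with an adjusted p under 0.05 between R-type and S-type tumours, by type and dose in Gy and in normal cerebellum; points are arrays and bars group means. For Ift172 the 3 R-type tumours at 0.2 Gy (0.75 to 0.82) lie below all other arrays, and for Ttbk2 every R-type tumour lies below every S-type tumour.

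The other 6 calls were lost under some settings. Arl13b was at 1.00, 1.13 and 1.35 in R-type and at 1.28, 1.34 and 1.53 in S-type tumours (difference -0.22, adjusted p = 0.031, limma) and was negative on every slide (-0.29 to -0.20). A second Arl13b probe gave -0.27 and passed, and the third gave -0.10 and did not. Cep290 was at -2.23, -2.12 and -1.79 in R-type and at -2.02, -1.74 and -1.26 in S-type tumours (difference -0.41, adjusted p = 0.0256, limma). That is the brightest Cep290 probe, and the other gave 0.10 and did not pass (adjusted p = 0.526, limma). Bbs12 had a difference of -0.21 (adjusted p = 0.0285) and Ift46 of -0.17 (adjusted p = 0.0468, limma). Of the 2 that were higher, Ift57 was at 2.42, 2.49 and 2.55 in R-type and at 2.17, 2.27 and 2.45 in S-type tumours (difference 0.20, adjusted p = 0.0236, limma), with 0.24 on both of its other probes. With no scaling its difference was -0.02. Evc2 was at 2.74, 2.92 and 3.47 in R-type and at 2.16, 2.64 and 2.89 in S-type tumours (difference 0.46, adjusted p = 0.0483, limma), and it kept its call in 7 of 24 alternatives. Evc, its neighbour, differed by 0.18 (95% interval -0.06 to 0.42). Of 16 members with several probes, 3 (Ift172, Ift46 and Ift57) passed on all of them in 1 direction, against 9.88% of all genes with several such probes.

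In other lists, between 0 and 2 genes passed in each direction. Kif3b, a kinesin-2 motor subunit, was lower in R-type (-0.23, adjusted p = 0.00453), as was the IFT-A gene Ttc21b (-0.37, adjusted p = 0.0399), and the dynein-2 gene Dync2h1 was higher (0.25, adjusted p = 0.029, limma). Of the transition zone and appendage genes, Ahi1 (-0.45) and Iqcb1 (-0.42), which binds Cep290, were lower, and B9d2 (0.30) and Cep83 (0.23) were higher. Of 11 markers of motile cilia and ependyma, 0 were higher in R-type and 2 were lower, Spag6 (-1.10) and Ccno (-0.63). Spag6 was well above background on only 6 of 15 arrays, so its difference rests on signals near background. It was at -7.56 to -5.58 in R-type tumours. The summed level of the list was 5.68 to 5.83 in R-type and 4.43 to 5.56 in S-type tumours. Rsph9 and Tppp3 made up most of that sum in the tumours, and neither passed between the types. Choroid plexus markers summed to 1.02 to 2.31 in R-type and 1.17 to 6.45 in S-type tumours. Their part in these differences was not tested.

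At 0.2 Gy, the 1 dose given to both types, 0 of 34 members were higher in R-type and 2 were lower, against 1.94% and 2.92% of all genes. Ift172 was at 0.75, 0.78 and 0.82 in R-type and at 1.22, 1.26 and 1.16 in S-type tumours, a difference of -0.43 (SE 0.069, 1.35-fold lower, adjusted p = 0.00625, limma). The groups lay far apart relative to their spread, and the call held in all 24 alternatives. Bbs12 was at -0.82, -0.73 and -0.92 in R-type and at -0.42, -0.47 and -0.53 in S-type tumours, a difference of -0.36 (SE 0.084, adjusted p = 0.0359, limma), which passed in 12 of 24 alternatives. It was lost without any 1 of the normal cerebella, MB4, MB5, MB6, MB7 or MB9, so that the count was 1 in each case. From the other lists Ahi1 (-0.61) and Iqcb1 (-0.46) were lower here too. Age differed between these groups as well, 106 to 127 in R-type and 128 to 135 in S-type.

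Within the types no member passed between doses by limma. In S-type tumours 1 gene of all tested passed between 0.2 and 0 Gy (0.00462%). Of the 34 members 1, Ift172, had an unadjusted p under 0.05, as did 1250 of all 21661 genes. Ift172 was at 1.22, 1.26 and 1.16 at 0.2 Gy and at 1.14, 1.03 and 1.02 at 0 Gy, a difference of 0.15 (95% interval 0 to 0.30, adjusted p = 0.863, limma). In R-type tumours 15 genes passed between 1.5 and 0.2 Gy (0.0692%), and 5 of 34 members had an unadjusted p under 0.05, as did 1565 of 21661 genes. These were Ift80 (0.29), Ift81 (0.25), Ift88 (0.25), Bbs12 (0.24) and Ift172 (0.23), with adjusted p of 0.572 to 0.687. Ift172 was at 1.11, 0.95 and 0.98 at 1.5 Gy and at 0.75, 0.78 and 0.82 at 0.2 Gy, so the groups did not overlap, but the difference did not pass (95% interval 0.08 to 0.38). The half-width of the 95% interval had a median of 0.22 over members in S-type and 0.21 in R-type tumours. These intervals are per gene and not adjusted over genes.

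Among tumours, MB2 and MB6, both S-type, had the lowest summed level of the 34 members, 103 and 107, against 118 to 132 in the other tumours and 89.5 to 91.4 in normal cerebella. They were the 2 lowest S-type tumours for Ift27 (3.60 and 4.01), Ift74 (0.16 and 0.07), Ift122 (3.90 and 3.67), Tctn2 (-1.66 and -1.98) and Tulp3 (-0.41 and -0.43). The sum adds linear signals, so the brightest probes, those of Ift27 and Ift122, weigh most in it. Not every member was low: MB2 and MB6 were among the highest tumours for Ttbk2 (1.56 and 1.54) and Gpr161 (-4.68 and -4.59). The median difference between the types turned to -0.008 without MB2 and to -0.009 without MB6. Other lists were low in them too: genes of ciliary traffic and Hedgehog transduction summed to 50.1 in MB2 and 48.6 in MB6, against 57 to 76.5 in the other tumours, and other IFT, BBSome and motor genes to 51.5 and 53.2, against 53.7 to 61.1. Cell type markers differed as well, since MB2 had the highest sum of mature granule neuron markers among tumours (44.3, against 26.7 to 40.1 in the others) and MB6 the highest sum of astrocyte and Bergmann glia markers (40.1, against 13.6 to 35.9). Both arrays were on the first slide, with MB10 and a normal cerebellum. The part of these markers and of the slide in the low levels was not tested.

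**Figure D5:**
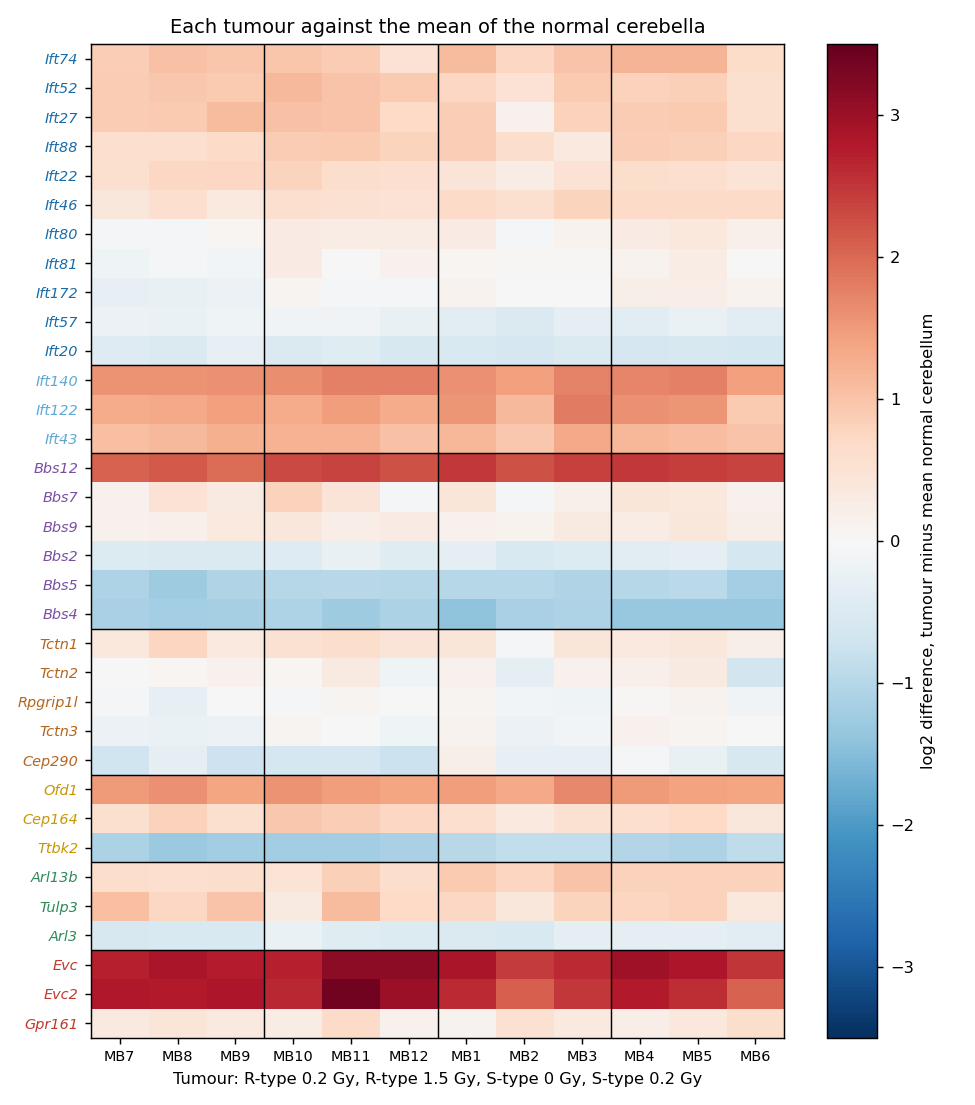
Level of each of the 34 members in each tumour less the mean of the 3 normal cerebella (log2; red higher, blue lower in the tumour), with members by role from IFT-B at the top to Hedgehog regulation at the bottom and tumours by type and dose. The rows of Evc, Evc2 and Bbs12 are red in all 12 tumours, those of Bbs4, Bbs5 and Ttbk2 are blue in all 12, and MB2 and MB6 are paler than the other tumours for Ift27 and Ift122.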

How the data were processed

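Total RNA of 12 medulloblastomas and 3 normal cerebella was hybridised to 15 one-colour arrays on 4 slides. The deposited array files hold spot intensity values on a linear scale, background-subtracted and detrended by the authors per the file headers, with no scaling between arrays, in Agilent Feature Extraction (version 9.5.1 in the submitters' processing notes). The deposited series table holds log2 values, how the authors made them not stated; differences between its columns correlated at 0.99992 to 0.99999 with those of the signals below, the columns of MB1 and MB2 sum to 0 at each probe, and the zero point otherwise stays unknown. Its column medians were 0.00242, 0.082 and 0.0892 for the 3 normal arrays, then 0.0506, -0.0506, 0.106, 0.0682, -0.0795, 0.0525, 0.0703, 0.13, 0.127, 0.0908, 0.152 and 0.099 for the tumours in the order of their numbers; it served as an alternative.

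The processed signal was taken to log2, and each array's 75th percentile over non-control spots was subtracted. Of 41174 probes, 76 with outlier spots were left out. RefSeq accessions named 24792 probes and 17154 symbols through a RefSeq table (GRCm38.p6, another build than the array's annotation). Each gene was read on its brightest probe and tested if well above background on at least 3 arrays. Means of 5 groups of 3 arrays were fitted by limma (version 3.58.1, R 4.3.3; 10 residual degrees of freedom, 1.7 prior), with two-sided contrasts and Benjamini-Hochberg adjustment at 0.05. Intervals are 95% and per gene. Python 3.11.15, pandas 2.3.3, numpy 2.4.6 and matplotlib 3.10.9 were used for tables and figures. The fit was tested on simulated data. Nothing says how the animals relate beyond 1 sample each, so p-values measure the spread between these samples.

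The members and the lists of other genes were chosen with earlier results of these data known. Every member could be named, and of each other list up to 4 genes with the smallest adjusted p in the comparison, or those answering a count of 5 or fewer. Alternatives changed the scaling, background correction, input table, filter on dim probes, use of probes and slide, or left out each array. The copy number arrays of the study were not analysed here.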

Additional observations from a re-analysis of the deposited data

Results flagged for a closer look

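In 2 of 68 sets of 6 tumours of a type (34 members, R-type and S-type), 1 tumour stood apart by Dixon's test at the 95% level, which chance alone gives in about 1 in 20 sets. Bbs2 was at -0.85 in MB11, against -1.11 to -1.04 in the other R-type tumours. Ift74 was at -0.05 in MB12, against 0.31 to 0.46 in the other R-type tumours.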

How the results depend on the processing

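Of the 28 calls between tumours and normal cerebella, 23 kept their direction and passed under all 24 alternatives; the count was 26 to 29 and the median difference 0.225 (no scaling) to 0.428. Averaging the probes of a gene turned Cep290 to 0.25, Ift46 to -0.31 and Rpgrip1l to 0.44, as their probes disagree. No scaling ended the calls of Bbs9, Gpr161 and Ift80. Leaving out 1 array gave counts of 26 to 28 and medians of 0.35 to 0.406. Between the types the numbers higher and lower were 0 and 11 with no scaling, 0 and 3 (3 in all) with median scaling or no filter on dim probes, 1 and 6 with quantile normalization, 4 and 3 with normexp, 4 and 6 with a strict filter, and 1 and 4 (5 in all) with slide as a term; with no scaling the median was -0.194 and Ift57 was at -0.02. Leaving out 1 array gave 2 to 7 calls, 0 to 3 higher, 2 to 6 lower and medians of -0.009 to 0.038. At 0.2 Gy the lower count was 10 with no scaling, 1 with median scaling, normexp, no filter or slide as a term, and 1 to 3 without 1 array, with 0 higher throughout. The causes were not tested. No member passed between doses under any of these settings. Apart from the reversals given here, 52 of 1680 values of single genes had the opposite sign to the reported one, for differences that passed in neither setting. No paired analysis was possible because tumours are numbered 1 to 12 across groups, normal cerebella are numbered separately, and all come from different animals. Signal near background limits Gpr161 and Bbs7 among members, and Spag6, Dnah11 and Hydin among the named motile cilium markers. The 3 arrays a group limit the precision.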
